A study of Mus musculus with 8 samples.

Results

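Sialylation and mucin-type O-glycan synthesis were examined through 38 genes in *Olfm4*-knockout and wild-type mouse prostate, out of 18161 genes that had their own probe set on the array. The 38 genes were fixed by name, and every probe set annotated to a current or older symbol of one of them was taken, which gave 92 of the 45037 probe sets tested. The set was chosen because *St6galnac1* and *St6galnac2* were higher in knockout than in wild-type prostate, so the knockout against wild-type values of these 2 genes chose the set. Their differences are therefore given as a description with no test.

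RNA from whole prostate was measured on Affymetrix Mouse Genome arrays in 4 *Olfm4*(−/−) and 4 *Olfm4*(+/+) mice at 3 months of age. All mice were of a mixed background, in equal parts 129/SV and Black Swiss, and the knockout line was kept by crossing *Olfm4*(+/−) mice. Whether the knockout and wild-type mice carried the same alleles at other loci is not stated, and no other allele or treatment is named. Each array held RNA of 1 sample, the labels give 4 samples per genotype where the methods state more, and array processing spanned 2 days, each with 2 knockout and 2 wild-type arrays. The deposited values are RMA values on the log2 scale, in which 1 unit is a doubling of signal. Differences are understated where the signal is near its lower end, and no detection calls were used.

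The *Olfm4* probe set had log2 values of 3.09, 3.00, 3.25 and 3.09 on knockout arrays 1 to 4, against 10.32, 10.23, 10.74 and 10.65 on wild-type arrays 1 to 4, so every array matched its label. Array medians lay between 6.03 and 6.09. Of 7 listed markers of prostate secretory epithelium, 6 were measured and all had a mean log2 value of at least 13.37, as fits the labelled tissue. Knockout array 1 and wild-type array 1 were rich in seminal vesicle transcripts, with mean log2 values of 13.81 and 14.15 over 6 markers, against 9.04 to 10.04 on the other knockout arrays and 7.88 to 9.65 on the other wild-type arrays.

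Mucin-type O-glycans are sugar chains built on serine and threonine residues of secreted and membrane proteins as these pass through the Golgi. A GalNAc transferase adds the first sugar, the core 1 enzyme adds galactose, and branching enzymes extend the chain. Sialyltransferases cap such chains, and those of N-glycans and glycolipids, with sialic acid, a charged sugar that is made in the cytosol, activated in the nucleus and carried into the Golgi. A chain capped with sialic acid on its first sugar is not extended further. The glands of the prostate secrete heavily glycosylated proteins into seminal fluid.

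*St6galnac1* encodes an enzyme that places sialic acid on the first GalNAc of an O-glycan, which makes the sialyl-Tn structure. Its brighter probe set, 1421517_at, had log2 values of 6.67, 7.22, 8.23 and 8.29 on knockout arrays 1 to 4, against 4.62, 4.57, 4.96 and 5.02 on wild-type arrays 1 to 4. Every knockout array lay above every wild-type array, and the lowest knockout value was above the highest wild-type value by more than the range of the wild-type arrays. The means were 7.60 ± 0.79 in knockout and 4.79 ± 0.23 in wild-type prostate (SD, n = 4 each). The difference, with array day in the fit, was 2.81 on the log2 scale (standard error 0.28), or 7.02-fold. The wild-type mean was under 5 on the log2 scale, a level below which 35.9% of all probe sets had their mean.

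The dimmer *St6galnac1* probe set, 1431249_at, had log2 values of 5.93, 6.46, 6.56 and 6.79 on the knockout arrays, against 5.08, 5.69, 5.58 and 5.57 on the wild-type arrays. The groups again did not overlap, with a smaller difference of 0.96 (standard error 0.21), or 1.94-fold. Both probe sets of this gene thus had higher values in knockout prostate.

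*St6galnac2* encodes a related sialyltransferase that acts on the GalNAc of O-glycans, also when galactose has already been added. Its brighter probe set, 1417616_at, had log2 values of 10.96, 11.24, 12.24 and 11.84 on knockout arrays 1 to 4, against 9.37, 9.29, 9.43 and 9.12 on wild-type arrays 1 to 4. The groups did not overlap, with means of 11.57 ± 0.58 in knockout and 9.30 ± 0.14 in wild-type prostate (SD, n = 4 each). The difference was 2.27 on the log2 scale (standard error 0.23), or 4.81-fold.

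The other *St6galnac2* probe set, 1417617_at, behaved differently. Its log2 values were 8.65, 8.61, 8.55 and 8.66 on the knockout arrays, against 8.02, 8.54, 8.80 and 8.81 on the wild-type arrays. Here the groups overlapped, since all 4 knockout arrays lay between wild-type arrays 2 and 3, and the difference was 0.07 (standard error 0.17, 95% confidence interval -0.32 to 0.47). The higher value of *St6galnac2* in knockout prostate was thus seen at a single probe set of 2, and which part of the transcript each probe set reads was not examined here.

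**Figure D1:**
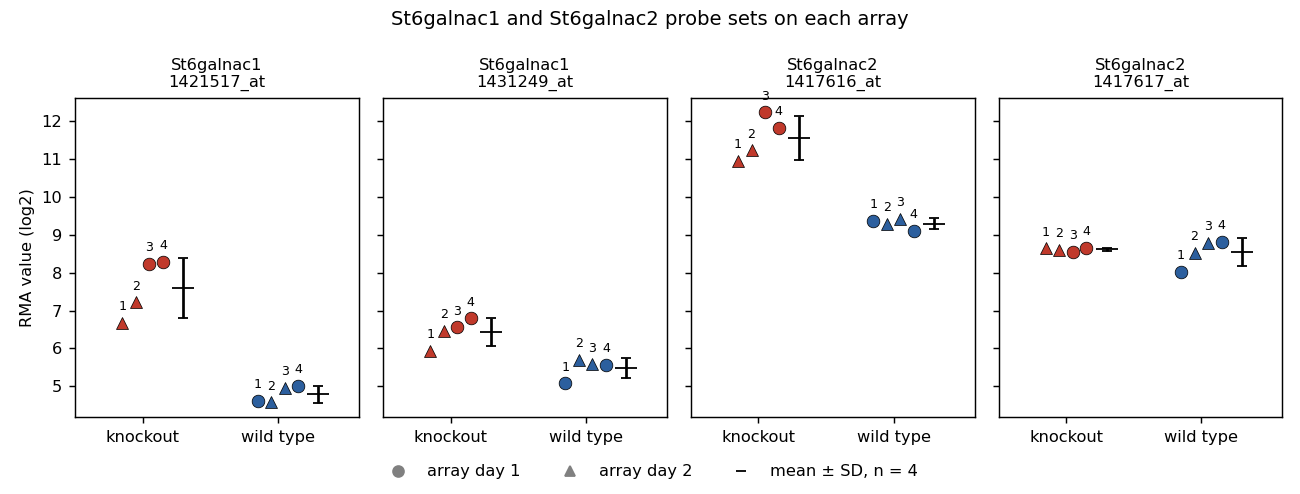
Log2 RMA values of the 4 probe sets of *St6galnac1* and *St6galnac2* on each of 4 knockout and 4 wild-type arrays, numbered by array, with circles for array day 1, triangles for array day 2 and bars for the mean ± SD (n = 4). At 3 probe sets the knockout and wild-type arrays do not overlap, while 1417617_at has a difference of 0.07.

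The 4 knockout arrays were not alike at these genes. For *St6galnac1* (1421517_at) the arrays of knockout mice 3 and 4, run on day 1, had 8.23 and 8.29, and those of mice 1 and 2, run on day 2, had 6.67 and 7.22. *St6galnac2* (1417616_at) showed the same order of days, with 12.24 and 11.84 on day 1 and 10.96 and 11.24 on day 2. The wild-type arrays showed no such gap between days at either gene. The knockout minus wild-type difference was 3.44 on day 1 and 2.18 on day 2 for *St6galnac1*, and 2.79 on day 1 and 1.74 on day 2 for *St6galnac2*.

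Whether the difference between genotypes depended on the day is a question that the choice of genes did not use, and it was tested for all probe sets with an interaction term in limma. The interaction was -1.26 (standard error 0.33, unadjusted p = 0.00739, adjusted p = 0.890) for *St6galnac1* and -1.06 (standard error 0.25, unadjusted p = 0.00497, adjusted p = 0.890) for *St6galnac2*. Neither passed an adjusted p of 0.05 over all probe sets. With 2 arrays per genotype and day, mouse and day cannot be told apart. Among the 92 probe sets of the 38 genes none was called for this interaction, where 1 of all 45037 was (0.00222%), and 10 had an unadjusted p under 0.05, where 4.90% of all probe sets did. Without *St6galnac1* and *St6galnac2* it was 7 of 88 probe sets.

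Of 40 measured cell type markers none was called between the genotypes in limma, where 0.171% of all genes were. With an unadjusted p under 0.05, 1 was higher and 1 lower, where 6.28% and 8.48% of all genes were. These were *Krt15*, a basal keratin gene (0.40, adjusted p = 0.313), and *Cd3e*, a T cell gene (-0.66, adjusted p = 0.281). For each of 9 marker lists, covering secretory and basal epithelium, seminal vesicle, urothelium, mucous glands, smooth muscle, fibroblasts, endothelium and leukocytes, the mean level over the list overlapped between knockout and wild-type arrays. Of all single genes, 4.49% had all knockout arrays above all wild-type arrays and 6.28% had them below. Overlap is thus the usual outcome and says little on tissue make-up. Mucous gland markers (4 of 4 measured), which stand for a cell type rich in sialylated mucins, ranged from 9.24 to 9.43 on knockout and from 9.18 to 9.40 on wild-type arrays. Among them *Agr2* was slightly higher on every knockout array, at 14.27 to 14.33 in knockout and 14.18 to 14.24 in wild-type prostate (difference 0.11, adjusted p = 0.460). *Spdef* had a difference of -0.19 (adjusted p = 0.456). The mucous list mean rested mainly on *Agr2* and *Spdef*, with mean log2 values of 14.26 and 11.78, against 5.82 for *Tff2* and 5.44 for *Muc5b*. It therefore says little on how many mucous gland cells the samples held. Urothelial markers (4 of 4) ranged from 9.13 to 9.82 on knockout and from 9.29 to 10.10 on wild-type arrays, and basal markers (4 of 4) from 11.24 to 11.77 on knockout and from 11.07 to 11.45 on wild-type arrays. In whole tissue, more cells that hold a transcript and more transcript per cell cannot be told apart. With the seminal vesicle score as a covariate the difference was 2.88 for *St6galnac1* and 2.30 for *St6galnac2*. Without knockout array 1 and wild-type array 1 it was 2.85 and 2.40.

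Both genes lie on chromosome 11, a feature that the choice of genes did not use. In the gene order of the RefSeq table for GRCm38.p6, the measured genes run *St6galnac2*, *BC018473* and *St6galnac1*, with no other measured gene among them. *BC018473*, annotated as a long non-coding RNA, had log2 values of 12.00, 10.34, 11.62 and 11.53 on knockout arrays 1 to 4, against 5.81, 5.66, 5.92 and 6.09 on wild-type arrays 1 to 4, at its brighter probe set. Its difference was 5.50 (standard error 0.32), and at its other probe set it was -0.05 (standard error 0.081), with values of 3.97 to 4.18 on knockout and 4.03 to 4.25 on wild-type arrays. Whether *BC018473* had the day gap of the 2 sialyltransferase genes could not be told. Its interaction was -0.24 with a wide standard error of 0.69. Its knockout values were 11.62 and 11.53 on day 1, and 12.00 and 10.34 on day 2.

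Of 51 measured neighbours, namely *BC018473* and the 25 genes on each side, *BC018473* alone was called at its brightest probe set at an adjusted p under 0.05 in limma, where 0.171% of all genes were. The 50 genes on the 2 sides had differences from -0.53 to 0.65 with a median of -0.03, against a median of -0.01 over all genes. Of these 50, 9 were lower and 1 was higher in knockout prostate with an unadjusted p under 0.05, where 8.48% and 6.28% of all genes were, and 8 had all knockout arrays below all wild-type arrays, where 6.28% of all genes did. Those with the smallest p were *Jmjd6* (-0.28, adjusted p = 0.220), *Tmc6* (-0.29, adjusted p = 0.221) and *Mettl23* (-0.53, adjusted p = 0.237). *Jmjd6* and *Mettl23* lie within 3 measured genes of *St6galnac1*. Over all 91 probe sets of the 51 neighbours a further one, a dimmer probe set of *Rnf157*, was called, with a difference of -0.88 (standard error 0.10, adjusted p = 0.0408 in limma). The brightest probe set of *Rnf157* had a difference of -0.52 (adjusted p = 0.317 in limma). Others of this gene had differences of -0.62, -0.44 and -0.09. Of the 91 probe sets 21 were lower with an unadjusted p under 0.05, where 7.34% of all probe sets were. At the brightest probe sets the largest differences were at 3 adjoining measured genes, of which 2 are those for which the set was chosen. *BC018473* and *St6galnac2* each had another probe set without such a difference. The cause of the lower values among the neighbours was not tested.

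**Figure D2:**
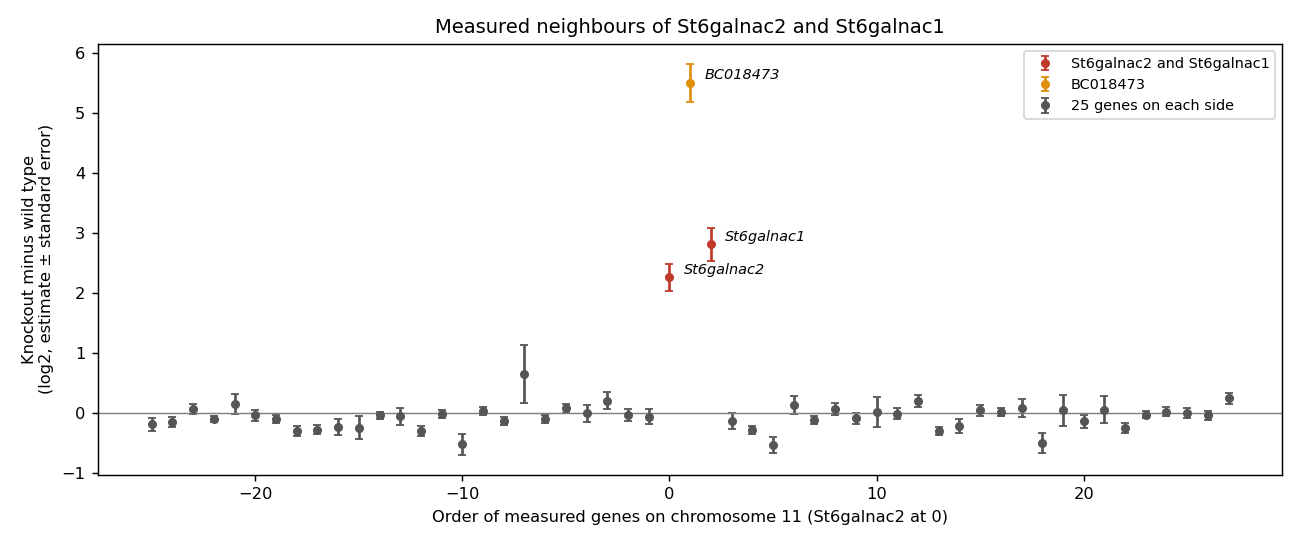
Knockout minus wild-type difference on the log2 scale (estimate ± standard error, brightest probe set) of *St6galnac2*, *BC018473*, *St6galnac1* and 25 measured genes on each side, in their order on chromosome 11. The 3 adjoining genes stand at 2.27, 5.50 and 2.81, and the others lie between -0.53 and 0.65.

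Across the 92 probe sets of the 38 genes, 2 were called as higher and none as lower at an adjusted p under 0.05, where 0.0600% and 0.0511% of all probe sets were. The 2 are the brighter probe sets of *St6galnac1* and *St6galnac2*, for which the set was chosen, and nothing is read from this count. Of the 88 probe sets of the other 36 genes none was called in limma. An unadjusted p under 0.05 was found for 4 of the 88 in the higher and 5 in the lower direction, where 5.46% and 7.34% of all probe sets had one, and the smallest adjusted p was 0.298. All knockout arrays lay above all wild-type arrays at 2 of the 88 and below them at 3, where 3.69% and 5.03% of all probe sets did so. Taking each gene by its brightest probe set, 18 of the other 36 were higher in the mean and 18 lower, where 46.2% of all genes were higher, with a median difference of 0.005, and 33 of the 36 had a difference within 0.5 of 0. The median over all 38 was 0.03, against -0.01 over all genes.

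**Figure D3:**
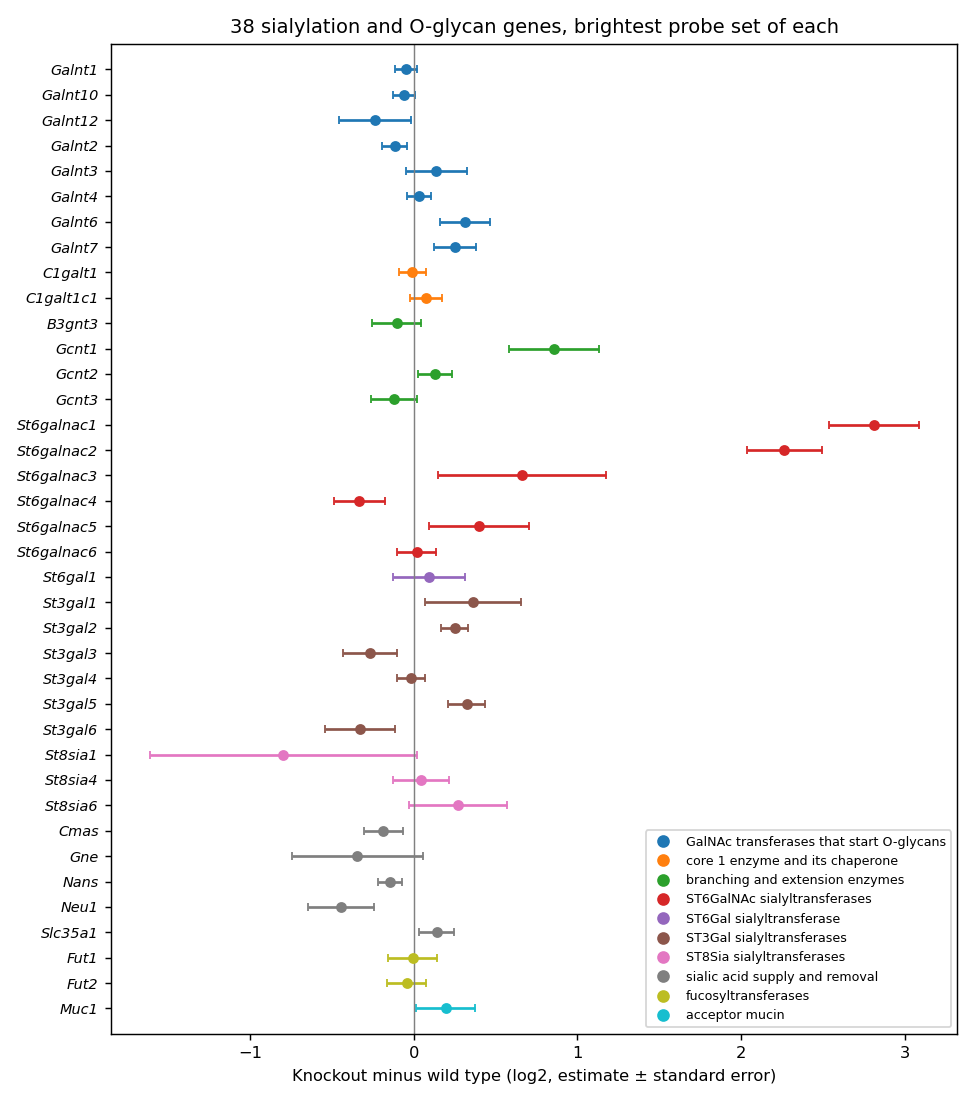
Knockout minus wild-type difference on the log2 scale (estimate ± standard error) of each of 38 genes at its brightest probe set, coloured by role. *St6galnac1* at 2.81 and *St6galnac2* at 2.27 stand to the right of all others, which lie between -0.80 and 0.86.

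The other ST6GalNAc genes were not called in limma. *St6galnac3* and *St6galnac5* encode enzymes that act mainly on gangliosides and other chains already capped with sialic acid. At its brightest probe set *St6galnac3* had log2 values of 8.62, 6.23, 5.98 and 5.88 on knockout arrays 1 to 4, against 6.13, 6.41, 5.87 and 5.66 on wild-type arrays. *St6galnac5* had 6.79, 5.52, 5.20 and 5.45 on the knockout arrays, against 5.38, 5.50, 5.09 and 5.41 on the wild-type arrays. In both, knockout array 1 was far above the rest and the remaining arrays overlapped.

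The differences of 0.66 (*St6galnac3*, adjusted p = 0.638) and 0.40 (*St6galnac5*, adjusted p = 0.632) fell to 0.06 and 0.05 without knockout array 1. *St6galnac4*, whose product adds a second sialic acid to a sialylated core 1 chain, had a difference of -0.33 (95% confidence interval -0.70 to 0.04). *St6galnac6*, a ganglioside sialyltransferase gene, had one of 0.02 (95% confidence interval -0.26 to 0.29). A dim probe set of *St6galnac3*, 1440121_at, had an unadjusted p of 0.0179 and a difference of -0.24, but its values of 2.87 to 3.00 on knockout and 3.04 to 3.37 on wild-type arrays are near the bottom of the scale.

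*St6gal1*, which encodes the enzyme that caps N-glycans with sialic acid, had log2 values of 8.59, 7.64, 7.70 and 7.80 on the knockout arrays, against 7.98, 8.03, 7.57 and 7.78 on the wild-type arrays. Its difference was 0.09 (95% confidence interval -0.42 to 0.60). Knockout array 1 was again the highest.

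Among the ST3Gal genes, which add sialic acid to galactose, none was called, and the differences of the 6 genes ran from -0.33 to 0.36. *St3gal2*, whose product acts on core 1 chains and gangliosides, had log2 values of 8.86, 8.83, 8.99 and 8.71 on the knockout arrays, against 8.61, 8.67, 8.46 and 8.66 on the wild-type arrays. The groups did not overlap, but the difference was small, 0.25 (standard error 0.085, unadjusted p = 0.0202, adjusted p = 0.311 in limma). Its other probe sets had differences of 0.16 and 0.11.

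*St3gal5*, the GM3 synthase gene that starts most gangliosides, had log2 values of 8.88, 8.47, 8.93 and 9.05 on the knockout arrays, against 8.63, 8.52, 8.46 and 8.43 on the wild-type arrays. Knockout array 2 lay within the wild-type range and the other 3 lay above it. The difference was 0.32 (standard error 0.11, unadjusted p = 0.0228, adjusted p = 0.318), and -0.07 at the dimmer probe set. The unadjusted p was over 0.05, and at most 0.0694, on leaving out knockout array 1, 3 or 4, or array 4 of the wild type.

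*St3gal1*, whose product caps core 1 chains and so competes with chain branching, had values of 7.35, 6.20, 6.54 and 6.44 on the knockout arrays, against 6.78, 6.37, 5.78 and 6.15 on the wild-type arrays. These overlapped (difference 0.36, standard error 0.30), and the difference was 0.06 without knockout array 1. *St3gal3* and *St3gal6*, which encode enzymes acting on N-acetyllactosamine chains, had differences of -0.27 and -0.33, with 95% confidence intervals of -0.65 to 0.12 and -0.83 to 0.17. Without knockout array 1 the difference of *St3gal6* was -0.51 (unadjusted p = 0.0288). *St3gal4*, of the same kind, had a mean log2 value of only 3.69 and a difference of -0.02.

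The ST8Sia enzymes join sialic acids to one another. *St8sia1*, the GD3 synthase gene, had values of 7.14, 4.08, 4.45 and 4.89 on the knockout arrays, against 7.53, 5.03, 6.18 and 5.01 on the wild-type arrays at its brightest probe set. The 2 arrays rich in seminal vesicle transcripts were the highest of each genotype, and the difference of -0.80 had a 95% confidence interval of -2.70 to 1.11. It was -1.57 (unadjusted p = 0.0347) without knockout array 1, and -0.93 (unadjusted p = 0.0587) without both of these arrays. At a dimmer probe set of *St8sia1* the difference was -0.25 (unadjusted p = 0.0421, adjusted p = 0.370). *St8sia4*, a polysialyltransferase gene, and *St8sia6* had differences of 0.04 and 0.27, and that of *St8sia6* was -0.06 without knockout array 1.

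None of the 8 GalNAc transferase genes that start O-glycans was called in limma. Their differences at the brightest probe set lay between -0.24 and 0.31, 4 of 8 were higher, and none had an unadjusted p under 0.05 there. The gene with the smallest p was *Galnt6*, with values of 6.95, 6.57, 6.64 and 6.41 on the knockout arrays, against 6.62, 6.24, 6.08 and 6.37 on the wild-type arrays (difference 0.31, adjusted p = 0.452). *Galnt1* and *Galnt2*, broadly expressed members of the family, had differences of -0.05 (95% confidence interval -0.21 to 0.11) and -0.12 (95% confidence interval -0.30 to 0.06). A dimmer probe set of *Galnt4* had values of 6.98, 7.17, 7.27 and 7.23 on the knockout arrays, against 7.38, 7.45, 7.59 and 7.35 on the wild-type arrays. These did not overlap (difference -0.28, unadjusted p = 0.0182, adjusted p = 0.303), whereas the brightest probe set of *Galnt4* had a difference of 0.03.

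The core 1 enzyme gene *C1galt1* and the gene of its chaperone, *C1galt1c1*, without which the enzyme is not active, had differences of -0.01 (95% confidence interval -0.20 to 0.18) and 0.07 (95% confidence interval -0.15 to 0.30) at their brightest probe sets. A dimmer probe set of *C1galt1*, 1428490_at, had a difference of 0.41 (unadjusted p = 0.0435, adjusted p = 0.375). That difference had an unadjusted p over 0.05 on leaving out any one of 5 of the 8 arrays.

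Of the branching and extension genes, *Gcnt1*, which encodes the core 2 branching enzyme, differed most. Its values were 8.75, 7.43, 7.46 and 7.47 on knockout arrays 1 to 4, against 6.97, 6.82, 7.26 and 6.64 on wild-type arrays 1 to 4. Every knockout array lay above every wild-type array, as in 4.49% of all genes. The difference was 0.86 (standard error 0.28, unadjusted p = 0.0156, adjusted p = 0.298 in limma), or 1.81-fold, and it was not called.

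Knockout array 1 carried part of the *Gcnt1* difference, which was 0.56 (unadjusted p = 0.00603) without it. At the dimmer *Gcnt1* probe set the difference was 0.32 (adjusted p = 0.621). *Gcnt2*, the I-branching enzyme gene, was represented by 8 probe sets, and its brightest had a difference of 0.13 (95% confidence interval -0.11 to 0.37). *B3gnt3* and *Gcnt3*, which encode enzymes that extend core 1 and branch O-glycans, had mean log2 values under 5, and with *St3gal4* these were the 3 genes of the 38 that did, where 21.4% of all genes did.

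None of the 5 genes of sialic acid supply and removal was called in limma, and none had an unadjusted p under 0.05 at its brightest probe set. *Gne*, whose product is the rate-limiting enzyme of sialic acid synthesis, had log2 values of 9.74, 10.85, 11.78 and 11.56 on knockout arrays 1 to 4, against 11.45, 11.41, 11.60 and 10.84 on wild-type arrays 1 to 4. The knockout arrays spanned a wider range than the wild-type arrays, with array 1 the lowest. The difference was -0.34 (95% confidence interval -1.28 to 0.59), and 0.05 without knockout array 1. *Gne* was higher in knockout on day 1 (0.52) and lower on day 2 (-1.21), with an interaction of -1.74 (standard error 0.52, unadjusted p = 0.0146, adjusted p = 0.890). The second *Gne* probe set had an interaction of -2.01 (unadjusted p = 0.00745, adjusted p = 0.890).

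*Nans* and *Cmas*, which encode the sialic acid synthase and the enzyme that activates sialic acid, had differences of -0.15 (95% confidence interval -0.32 to 0.03) and -0.19 (95% confidence interval -0.47 to 0.10). *Slc35a1*, the Golgi transporter gene for activated sialic acid, had one of 0.14 (95% confidence interval -0.11 to 0.39).

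*Neu1*, which encodes the lysosomal enzyme that removes sialic acid, had log2 values of 10.49, 11.29, 11.63 and 11.14 on the knockout arrays, against 11.60, 11.58, 11.59 and 11.56 on the wild-type arrays. The wild-type arrays were nearly equal, and 3 of 4 knockout arrays lay below them. The difference was -0.45 (standard error 0.20, adjusted p = 0.415), and -0.24 without knockout array 1. A dimmer *Neu1* probe set, 1448481_at, had a difference of -0.95 (standard error 0.35, unadjusted p = 0.0274, adjusted p = 0.333), which was -0.57 without knockout array 1, and the x-type probe set 1447942_x_at had one of 0.09.

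*Fut2*, which encodes the secretory fucosyltransferase of the H antigen, had a difference of -0.04 (95% confidence interval -0.32 to 0.24) at its brightest probe set. Its dimmer probe set had values of 6.21, 6.19, 6.85 and 6.77 on the knockout arrays, against 6.84, 6.77, 6.79 and 6.81 on the wild-type arrays. Knockout arrays 1 and 2, of day 2, were low, and arrays 3 and 4, of day 1, lay with the wild type. This gave the smallest interaction p of the 92 probe sets (-0.57, standard error 0.12, unadjusted p = 0.00235, adjusted p = 0.890). *Fut1* had a difference of -0.01 (95% confidence interval -0.36 to 0.34). *Muc1*, the membrane mucin gene whose product carries many O-glycans, had one of 0.19 (95% confidence interval -0.22 to 0.61).

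Much of the variation among the 38 genes lay in knockout array 1. It was the highest of the 8 arrays for 11 genes and the lowest for 9, that is for 52.6% of the genes, where it was the highest or lowest for 39.7% of all 18161 genes. The other arrays held an extreme value for 3 to 12 of the 38 genes. Among the 14 sialyltransferase genes other than *St6galnac1* and *St6galnac2*, 8 were highest on knockout array 1 and none was lowest there. Among the 5 supply and removal genes 4 were lowest on it and none was highest. Over all 18161 genes this array was the highest for 17.8% and the lowest for 21.9%. Genes on 1 array are not independent of each other. Without this array the difference of 18 of the 38 genes moved by more than 0.1, and it changed sign for 5 of these 18, namely *St6galnac6* (to -0.09), *St6gal1* (to -0.14), *St8sia4* (to -0.10), *St8sia6* (to -0.06) and *Gne* (to 0.05).

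Some markers also set this array apart. All 4 smooth muscle markers were highest on it, with a mean of 13.54, against 13.15 to 13.38 elsewhere. The mean over the 6 markers of secretory epithelium was 13.34 on it and between 13.86 and 13.93 on the other 7 arrays, a gap that rested on *Msmb*, since without that gene the mean was 13.79 on it and between 13.80 and 13.85 elsewhere. The mean over the 4 urothelial markers was 9.13 on it, against 9.29 to 10.10 elsewhere. That gap rested on *Upk1a*, at 8.82 on this array and 11.70 to 12.53 elsewhere. Without *Upk1a* the mean was 9.23 on this array and between 8.47 and 9.33 elsewhere. The mean over the 4 fibroblast markers was 10.50, against 9.87 to 10.38 elsewhere, but without *Lum* it was 11.96 on this array and 12.00 on knockout array 4. The part of these markers in the values of the 38 genes was not tested. At the brighter probe sets of *St6galnac1* and *St6galnac2*, and at the dimmer one of *St6galnac1*, this array had the lowest knockout value. That value still lay above every wild-type array.

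**Figure D4:**
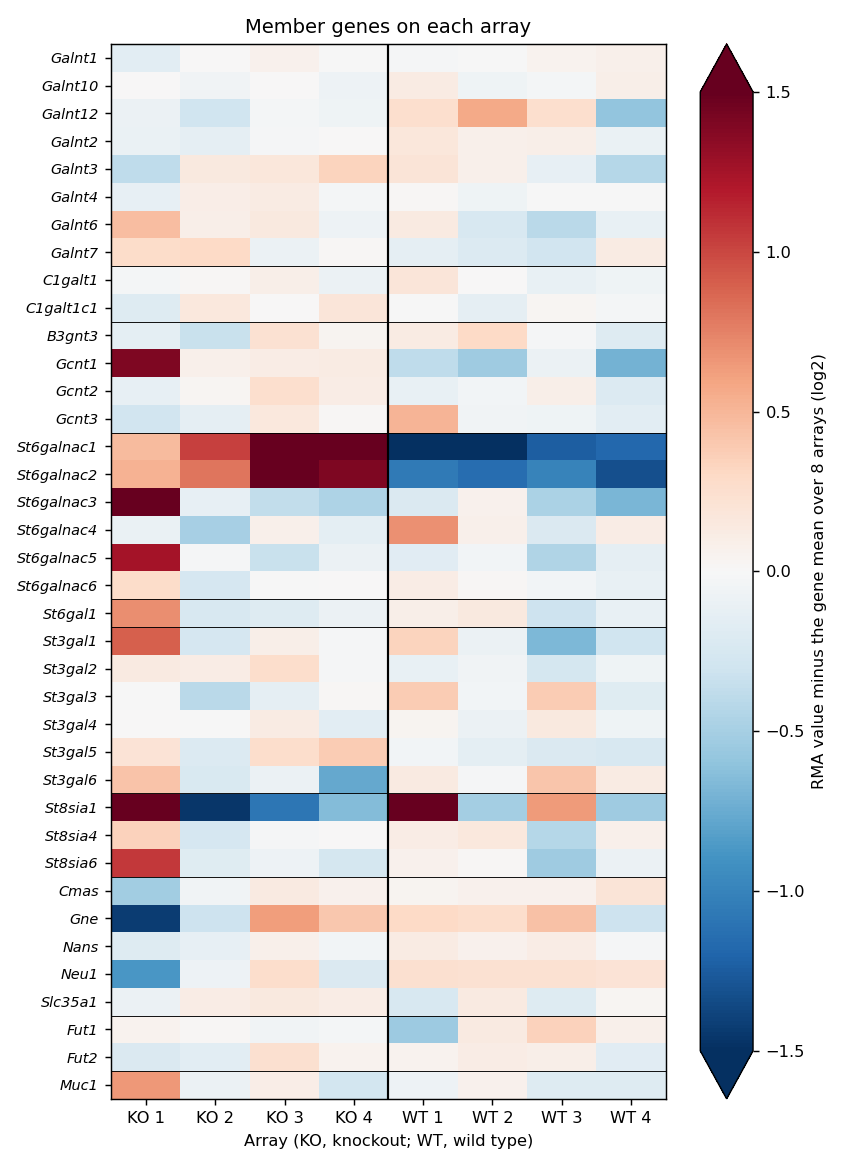
Log2 value of each of 38 genes (brightest probe set) on each array minus the gene's mean over 8 arrays, with knockout arrays left and wild-type arrays right of the line and genes grouped by role, with colours saturating at 1.5. *St6galnac1* and *St6galnac2* separate the genotypes, and knockout array 1 is the highest array for 11 genes and the lowest for 9.

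Other genes of the pathway were taken from a list. Of 79 listed genes 72 were measured, and none was called in limma, where 0.171% of all genes were. At the brightest probe set 6 were higher and 2 lower with an unadjusted p under 0.05, where 6.28% and 8.48% of all genes were. *Npl*, which encodes the lyase that breaks down free sialic acid, had values of 6.63, 5.74, 6.18 and 5.72 on the knockout arrays, against 5.32, 4.82, 4.96 and 5.27 on the wild-type arrays. The groups did not overlap, and the difference was 0.98 (standard error 0.23, unadjusted p = 0.00294, adjusted p = 0.209).

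The other higher genes were *Muc13*, a membrane mucin gene (0.34, adjusted p = 0.297), *Slc35a2*, the Golgi carrier gene for UDP-galactose (0.21, adjusted p = 0.314), *Casd1*, which encodes a sialic acid acetyltransferase (0.29, adjusted p = 0.338), *Muc5ac*, a gel-forming mucin gene (0.30, adjusted p = 0.345), and *B3gnt2*, which encodes an N-acetyllactosamine chain extending enzyme (0.16, adjusted p = 0.386). The lower genes were *Galnt16*, of the GalNAc transferase family (-0.49, adjusted p = 0.318) and *Pgm3*, an enzyme gene of UDP-GlcNAc synthesis (-0.33, adjusted p = 0.337). Other sialyltransferase genes (4 measured) had differences between -0.25 and 0.11, and 10 sialic acid binding lectin genes, among them those of the Siglec family, had differences between -0.22 and 0.44. *Abo*, the blood group transferase gene, and *Smgc*, a mucin-like gene of salivary glands, were chosen after their values were seen, since their means differed most without passing the test. *Abo* had values of 6.13, 11.32, 11.82 and 11.89 on the knockout arrays, against 12.10, 11.59, 11.74 and 11.00 on the wild-type arrays, with knockout array 1 far below the other 7 (difference -1.32, adjusted p = 0.677). Without that array the difference of *Abo* was 0.05. *Smgc* had 4.47, 8.55, 9.10 and 10.94 on the knockout arrays, against 9.90, 9.30, 10.54 and 9.47 on the wild-type arrays (difference -1.53, adjusted p = 0.605). The difference of *Smgc* was 0.34 on day 1 and -3.41 on day 2, and -0.34 without knockout array 1.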

How the data were processed

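The deposited values are log2 expression values that the authors made with RMA, a method of background correction, quantile normalization and summary by probe set whose version was not given in the sources used here. Different RNA extractions are named in the labels and in the methods. The 64 control probe sets were left out. Of the remaining 45037, 34945 carried a single gene symbol, 932 several and 9160 none. Symbols were updated through gene IDs in the RefSeq table of GRCm38.p6, which matched 18159 of 18161 genes. Its gene order was used without coordinates. No promoter or protein sequence is shown.

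Knockout and wild type were compared in limma 3.58.1 under R 4.3.3 (lmFit and eBayes, 2-sided tests, array day in the model), with Benjamini-Hochberg adjustment over all probe sets, and a call means an adjusted p under 0.05. Each gene was represented by its brightest probe set, judged on the mean of all 8 arrays. The methods name ANOVA with false discovery rates and no covariate, which was run as an alternative. On simulated data 200 of 45037 probe sets were changed, 50 at each size. The fit called 14% at a log2 change of 0.5, 94% at a change of 1 and 100% at larger changes, and 5.52% of its calls were false. The simulated noise was independent between probe sets and held no array deviations shared by many genes, such as those of knockout array 1. The simulation also held 200 changed probe sets, where 50 were called in the real data, and more true changes ease the adjusted threshold. For both reasons the shares called may be higher than in the real data. The number of arrays limits precision, and whether same-genotype mice shared a litter is not stated.

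The members, gene lists and tests were chosen with earlier results of these data known. Every member could be named, as could other pathway genes at an unadjusted p under 0.05 and at most 6 neighbours with the smallest p. Marker lists are described by the mean of their brightest probe sets per array. Alternatives were the fit without array day, a replicate block, ANOVA, array weights, robust variance with an intensity trend, centring, quantile normalization, minimum mean log2 values of 5 and 7, each day alone, a seminal vesicle covariate, leaving out arrays, and the mean of a gene's probe sets.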

Additional observations from a re-analysis of the deposited data

Results flagged for a closer look

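In 8 of 76 groups of 4 arrays (38 genes at their brightest probe set in both genotypes) 1 array lay apart from the other 3 by Dixon's test. The test flags about 1 in 20 independent groups by chance. These groups share the same 8 arrays, and the share flagged over all genes was not computed, so nothing is read from the count. Knockout array 1 was the array apart 5 times, and it was the highest or lowest array for 39.7% of all 18161 genes. It was the highest knockout array for *Gcnt1* (8.75), *St6galnac3* (8.62), *St6gal1* (8.59) and *St8sia6* (6.84), and the lowest for *Slc35a1* (8.47). Wild-type array 1 was the highest of its group for *Gcnt3* (4.90), wild-type array 3 the lowest for *St8sia4* (9.02) and wild-type array 4 the highest for *Cmas* (12.06). No array lay apart in this way for *St6galnac1* or *St6galnac2*.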

How the results depend on the processing

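*St6galnac1* and *St6galnac2* kept a higher value in knockout prostate at their brighter probe sets under each alternative that measured them. A mean of at least 7 removes *St6galnac1*. The groups do not overlap there, so leaving out arrays or taking a single day could not change the sign. The fits without array day, with the replicate block, with ANOVA or with an intensity trend return the same difference by design. Nothing is therefore read from the kept sign, and the mean of a gene's probe sets is not given for these 2 genes. Their differences moved by more than the spread between replicates on single days only, to 3.44 (day 1) and 2.18 (day 2) for *St6galnac1* and to 2.79 (day 1) and 1.74 (day 2) for *St6galnac2*, and leaving out 1 array gave 2.61 to 3.05 and 2.08 to 2.43. The count of called member probe sets, 2 on all arrays, depended on single arrays. On all arrays it rested on the genes for which the set was chosen, so nothing is read from it. Leaving out array 2 or array 4 of either genotype gave 0, leaving out knockout array 3 or wild-type array 1 or 3 gave 1, and leaving out both arrays numbered 1 gave 1. It was 0 with ANOVA, 0 on day 1 alone and 0 on day 2 alone, and 1 with a mean of at least 7. It was 3 with the seminal vesicle covariate, where the dimmer probe set of *St6galnac1*, a gene for which the set was chosen, was added (difference 1.02). Leaving out 1 array gave 0 to 2. The number called over all 45037 probe sets was 50, and 24 with ANOVA, 71 without array day, 20 with the replicate block, 73 with an intensity trend and 17 to 43 without 1 array. No member was called lower under any alternative.

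Member probe sets lower at an unadjusted p under 0.05 numbered 5, and 3 with ANOVA, 3 after centring, 3 after quantile normalization, 1 with a mean of at least 7, 0 on day 1 alone, 8 with the seminal vesicle covariate, 2 without knockout array 1 and wild-type array 1, and 3 to 13 without 1 array (13 without wild-type array 4). The higher ones numbered 5 to 7 without 1 array. The chromosome 11 count of 1 was 0 on day 2 alone. The interaction count of 0 was 1 without knockout array 2. The cause of these changes was not tested.

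Replicate numbers share a label only. Deviations of same-numbered knockout and wild-type arrays correlated at 0.34, 0.17, 0.04 and -0.01 for numbers 1 to 4. With the replicate number as a block in place of array day, 1 member probe set was called.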
